A study of Mus musculus with 12 samples.

Results

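Pax5, Ebf1, Foxo1, Bach2, Bcl6, Spib, Irf8, Id3 and Bcl11a encode transcription factors that set up or keep B cell identity, and their transcripts were measured in plasma cells with and without Zbtb32. These 9 genes were taken by name, each read from the probe set that names this gene alone and, over the 12 arrays, has the highest mean. They are 9 of the 19938 genes with such a probe set. All 9 passed the filter on low values, a mean above 5.49 on the log2 scale, as did 14993 genes in all. Each of the 9 had 1 single-gene probe set and 0 probe sets that it shared with another gene.

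The cells came from an adoptive transfer. Splenocytes of CD45.2 donors that were immune to NP-CGG, a hapten on a carrier protein, went into CD45.1 recipients, which then received the antigen. Donors were wild type (Zbtb32 +/+) or Zbtb32-/-, and both groups shared every other step. At 7 days after the challenge, donor-derived plasma cells were sorted from bone marrow as cells that bound NP, carried CD138 and CD45.2, and lacked CD11b, Ly6g, B220 and CD45.1. Each genotype had 6 arrays, 1 per sample, called biological replicates in the series text. The age and strain of the mice, the number of mice behind a sample and the part of Zbtb32 that was deleted are not given in the sources used here. The transferred cells were splenocytes, so the labels do not limit the loss of Zbtb32 to B cells. The text also treats replicates 1 to 3 and 4 to 6 as sets of 3 arrays per genotype. The labels name no batch, and these sets were chosen because the arrays had been seen to differ by them.

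Ebf1 and Pax5 commit lymphoid progenitors to the B lineage, and Foxo1 acts beside them at its early stages. Bach2 and Bcl6 repress Prdm1, the gene of Blimp-1, and so hold back plasma cell differentiation, while Blimp-1 represses Pax5, Bcl6 and Spib once it is made. Spi-B and Irf8 act at DNA elements that pair an ETS site with an IRF site, Id3 binds E proteins and keeps them off DNA, and Bcl11a is needed for early B cell development. Pax5, Bcl6 and Spib are therefore known to be lower in plasma cells than in B cells. Among the single-gene probe sets of these arrays, the 9 means ran from percentile 45.6 for Id3 to percentile 91.6 for Pax5. No B cell sample was analysed here, so the distance from the B cell level cannot be read from these arrays.

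RefSeq promoter windows of build GRCm38.p6, from 250 bases before to 50 bases after an annotated start, were matched by symbol for 9 of the 9 genes, in 12 windows. The windows of Pax5, Ebf1 and Bach2 are shown because these transcripts moved together across the arrays, and those of Bcl6 because its transcript did not follow them. Each line reads 5′ to 3′ on the gene's strand, and capitals mark matches to the searched motifs.
Pax5, chr4:44710645-44710944, minus strand: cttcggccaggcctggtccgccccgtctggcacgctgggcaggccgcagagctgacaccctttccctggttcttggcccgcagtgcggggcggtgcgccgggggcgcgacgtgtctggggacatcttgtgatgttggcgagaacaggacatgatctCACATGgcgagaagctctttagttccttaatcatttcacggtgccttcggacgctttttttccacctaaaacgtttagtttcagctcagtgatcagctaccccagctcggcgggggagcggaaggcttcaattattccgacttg
Ebf1, chr11:44617850-44618149, plus strand: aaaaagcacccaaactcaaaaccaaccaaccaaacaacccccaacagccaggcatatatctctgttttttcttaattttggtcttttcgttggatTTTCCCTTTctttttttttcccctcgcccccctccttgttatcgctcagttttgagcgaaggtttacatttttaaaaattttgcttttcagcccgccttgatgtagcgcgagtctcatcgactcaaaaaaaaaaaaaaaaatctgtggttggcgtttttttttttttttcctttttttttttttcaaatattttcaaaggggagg
Ebf1, chr11:44619978-44620277, plus strand: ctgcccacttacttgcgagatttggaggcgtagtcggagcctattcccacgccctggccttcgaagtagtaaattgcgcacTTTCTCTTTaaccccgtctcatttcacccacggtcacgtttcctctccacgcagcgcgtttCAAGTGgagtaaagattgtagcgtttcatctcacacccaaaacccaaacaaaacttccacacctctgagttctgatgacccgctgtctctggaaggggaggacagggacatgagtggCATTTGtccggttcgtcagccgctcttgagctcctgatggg
Bach2, chr4:32417185-32417484, plus strand: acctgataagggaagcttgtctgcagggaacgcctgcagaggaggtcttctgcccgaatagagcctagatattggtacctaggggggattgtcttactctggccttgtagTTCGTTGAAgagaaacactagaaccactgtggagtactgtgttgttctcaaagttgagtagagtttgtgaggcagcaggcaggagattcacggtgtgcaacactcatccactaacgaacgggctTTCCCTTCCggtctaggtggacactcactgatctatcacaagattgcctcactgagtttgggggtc
Bcl6, chr16:23988803-23989102, minus strand: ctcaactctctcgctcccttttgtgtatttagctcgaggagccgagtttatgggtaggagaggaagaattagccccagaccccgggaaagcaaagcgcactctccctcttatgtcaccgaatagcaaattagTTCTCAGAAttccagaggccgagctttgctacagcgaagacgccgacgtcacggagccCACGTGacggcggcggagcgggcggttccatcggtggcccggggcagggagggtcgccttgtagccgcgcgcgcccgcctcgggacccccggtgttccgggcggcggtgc
Bcl6, chr16:23981234-23981533, minus strand: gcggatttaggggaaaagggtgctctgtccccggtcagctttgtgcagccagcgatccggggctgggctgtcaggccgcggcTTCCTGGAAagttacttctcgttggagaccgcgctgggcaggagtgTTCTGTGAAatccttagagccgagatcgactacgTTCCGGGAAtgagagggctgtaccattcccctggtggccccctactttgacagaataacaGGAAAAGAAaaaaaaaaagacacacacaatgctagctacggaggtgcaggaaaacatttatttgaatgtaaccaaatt

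The Pax5 window and the first Ebf1 window lie at the outermost start of the gene in the RefSeq gene table of the same build, while the second Ebf1 window and those of Bach2 and Bcl6 lie at starts inside the annotated gene. Motifs were searched on both strands. The palindrome TTCNNNGAA, to which Bcl6 and STAT proteins bind, was found 3 times in the inner Bcl6 window and 1 time in the outer one, beginning 168, 122, 88 and 118 bases before the start. It occurred 1 time in the Bach2 window, 140 bases before the start, and also in windows of Irf8 and Bcl11a that are not printed. In all, 5 of the 12 windows, of 4 genes, held it. Of all 32851 windows, 8.30% hold it. The ETS and IRF composite element GGAANNGAA, present in 8.24% of windows, lay 16 bases before the start of Bach2 and 28 bases before the inner start of Bcl6. It also lay 159 bases before the start of Bcl11a, and so was in 3 of the 12 windows. The IRF and Blimp-1 core AAAGNGAAA, present in 3.07% of windows, lay 155 bases before the outer and 169 bases before the inner start of Ebf1. The Pax5 window held only an E box, CANNTG, as 72.3% of windows do, the outer Bcl6 window held 1 as well and the inner Ebf1 window held 2. Of the 12 windows, 7 held an E box. The letters searched for the Spi-B and PU.1 core (GAGGAAGT, 3.20% of windows), the Bach and AP-1 element (TGANTCA, 7.81%), the Foxo core (GTAAACA, 3.65%) and the octamer (ATGCAAAT, 1.74%) were in 0 of the 12 windows. The EBF core CCCNNGGG, present in 13.7% of windows, was in 3 windows, those of Foxo1 and Spib and 1 of Irf8. No printed matches overlap each other. A match is a run of letters and not a measured site.

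The arrays were alike in their overall values, with medians of 6.28 to 6.43 on the log2 scale. Across probe sets, wild-type replicates 2 and 6 correlated least with the rest, by a mean r of 0.933 and 0.938, and the genotype difference of each factor is given with and without this pair. The Zbtb32 probe set gave 6.67 ± 0.16 in wild-type and 6.56 ± 0.10 in Zbtb32-/- cells (log2, SD, n = 6 each), which checks no genotype because the deleted part is not known here. Defining plasma cell transcripts were high in all arrays: Jchain, which links antibody units, ranged from 13.51 to 13.94, and Xbp1, a driver of the secretory programme, from 12.68 to 13.43. B cell transcripts were measured too, with means of 9.30 for Cd79a, of the antigen receptor, and 8.75 for Ms4a1, the gene of CD20. In bulk samples such as these, fewer cells that carry a transcript and less RNA per cell cannot be told apart.

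Between the genotypes, Bach2, Ebf1 and Pax5 had the most negative differences among the 9 factors, Bcl6 and Foxo1 had slightly positive ones, and none passed the adjusted threshold. Each difference is the Zbtb32-/- mean less the wild-type mean, in log2 units. Of the 14993 genes tested with limma, 0 passed an adjusted p of 0.05, which is 0%, and 642, or 4.28%, had an unadjusted p under 0.05. Of the 9 factors, 7 had a negative difference, against 47.1% of all genes, and their median difference was -0.36 against 0.01 for all genes. Only Bach2 had an unadjusted p under 0.05, on the lower side, where 1.45% of all genes were. The genotypes overlapped for 9 of the 9 factors, and 0.153% of all genes had groups that did not overlap.

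**Figure D1:**
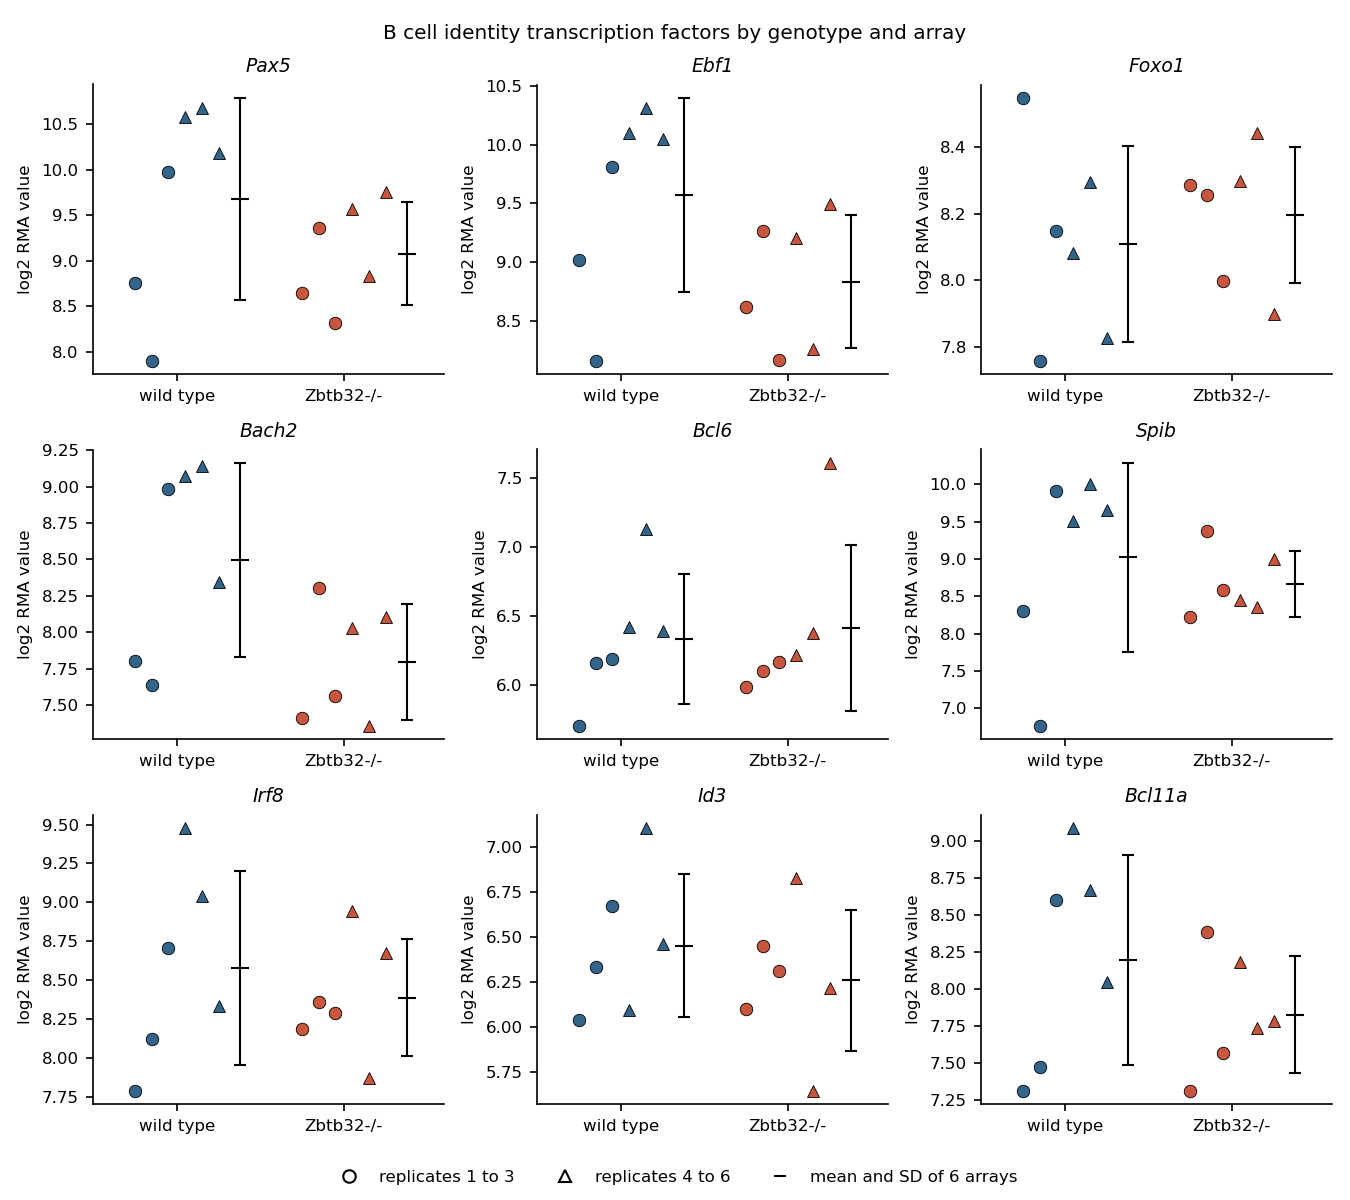
Log2 RMA value of each factor (vertical axis, scaled per gene) in the 6 wild-type and 6 Zbtb32-/- arrays, with circles for replicates 1 to 3, triangles for replicates 4 to 6, and the mean with its SD beside each group. Wild-type replicates 3 to 6 lie at the top for Bach2, Pax5, Ebf1 and Spib, while Foxo1 stays within 7.76 to 8.55 on every array.

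Pax5, which activates B cell genes and silences those of other lineages, spread widely among the wild-type arrays. Its 6 wild-type values ran from 7.90 to 10.68 with a median of 10.08, and its 6 Zbtb32-/- values from 8.32 to 9.75 with a median of 9.10. Wild-type replicates 3 to 6 were the 4 highest arrays, at 9.97, 10.59, 10.68 and 10.19, and wild-type replicate 2 was the lowest of all 12. The means were 9.68 ± 1.11 and 9.08 ± 0.57 (log2, SD, n = 6 each). The difference of -0.60 (SE 0.44, 95% interval -1.55 to 0.35) did not exceed that spread, with a limma adjusted p of 0.933.

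Ebf1, the pioneer factor that acts with Pax5, had nearly the same order of arrays. It ran from 8.16 to 10.31 in wild-type cells, with a median of 9.93, and from 8.17 to 9.49 in Zbtb32-/- cells, with a median of 8.91. The same 4 wild-type arrays, replicates 3 to 6, were the highest, and wild-type replicate 2 was again the lowest. The means were 9.57 ± 0.83 and 8.83 ± 0.56, and the difference was -0.74 (SE 0.36, interval -1.51 to 0.03; limma unadjusted p = 0.0590, adjusted p = 0.933). Leaving out wild-type replicates 2 and 6 moved it to -0.97, and that of Pax5 to -0.92.

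Foxo1, which switches on genes of early B cells and of lymphocyte quiescence, varied least of the 9. Its values ran from 7.76 to 8.55 in wild-type and from 7.90 to 8.44 in Zbtb32-/- cells, so that the Zbtb32-/- arrays lay wholly inside the wild-type range. The difference was 0.09 (SE 0.15, interval -0.24 to 0.42), and it was -0.07 without wild-type replicates 2 and 6.

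Bach2, the repressor that delays plasma cell formation, had values of 7.81, 7.64, 8.98, 9.07, 9.14 and 8.35 in wild-type replicates 1 to 6. In Zbtb32-/- replicates 1 to 6 it had values of 7.42, 8.30, 7.57, 8.03, 7.36 and 8.10. The 4 highest arrays were wild-type replicates 3 to 6, and the 4 lowest were Zbtb32-/- replicates 1, 3 and 5 and wild-type replicate 2. All 6 Zbtb32-/- values lay below the wild-type mean of 8.50 ± 0.66, around their own mean of 7.80 ± 0.40. The difference was -0.70 (SE 0.28, interval -1.31 to -0.09), a 1.63-fold lower value, with an unadjusted p of 0.0271 and an adjusted p of 0.933 in limma. It was negative in all 27 alternatives tried, where it ran from -1.02 to -0.23 with adjusted p-values of 0.539 to 1.000. Without wild-type replicates 2 and 6 it was -0.95.

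Bcl6, the repressor of the germinal centre programme, lay lower on its probe set's scale and did not follow Bach2. It ran from 5.70 to 7.13 in wild-type cells (median 6.29) and from 5.99 to 7.61 in Zbtb32-/- cells (median 6.19). The highest value belonged to Zbtb32-/- replicate 6, and the 5 other Zbtb32-/- arrays lay within 5.99 to 6.37. The difference was 0.08 (SE 0.27, interval -0.51 to 0.66), and without that array it was -0.16. Without wild-type replicates 2 and 6 it was 0.05.

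Spib, an ETS factor of the B cell and plasmacytoid lineages, had the widest range of the 9. It ran from 6.76 in wild-type replicate 2 to 9.997 in wild-type replicate 5, and from 8.22 to 9.38 in Zbtb32-/- cells. All 6 Zbtb32-/- arrays fell between the wild-type extremes. The difference was -0.36 (SE 0.47, interval -1.38 to 0.66), and leaving out wild-type replicates 2 and 6 made it -0.77.

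Irf8, its IRF partner, ran from 7.79 to 9.48 in wild-type and from 7.87 to 8.94 in Zbtb32-/- cells and differed by -0.19 (SE 0.27). Bcl11a, a zinc finger factor of early lymphoid cells, ran from 7.31 to 9.09 and from 7.31 to 8.38 and differed by -0.37 (SE 0.30). Id3, the inhibitor of E proteins, ran from 6.04 to 7.11 and from 5.64 to 6.83 and differed by -0.19 (SE 0.20). Without wild-type replicates 2 and 6 the differences of Irf8, Bcl11a and Id3 were -0.37, -0.59 and -0.22. For these 3 genes the ranges of the genotypes overlapped widely, and their adjusted p-values in limma were 0.933 to 0.951.

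**Figure D2:**
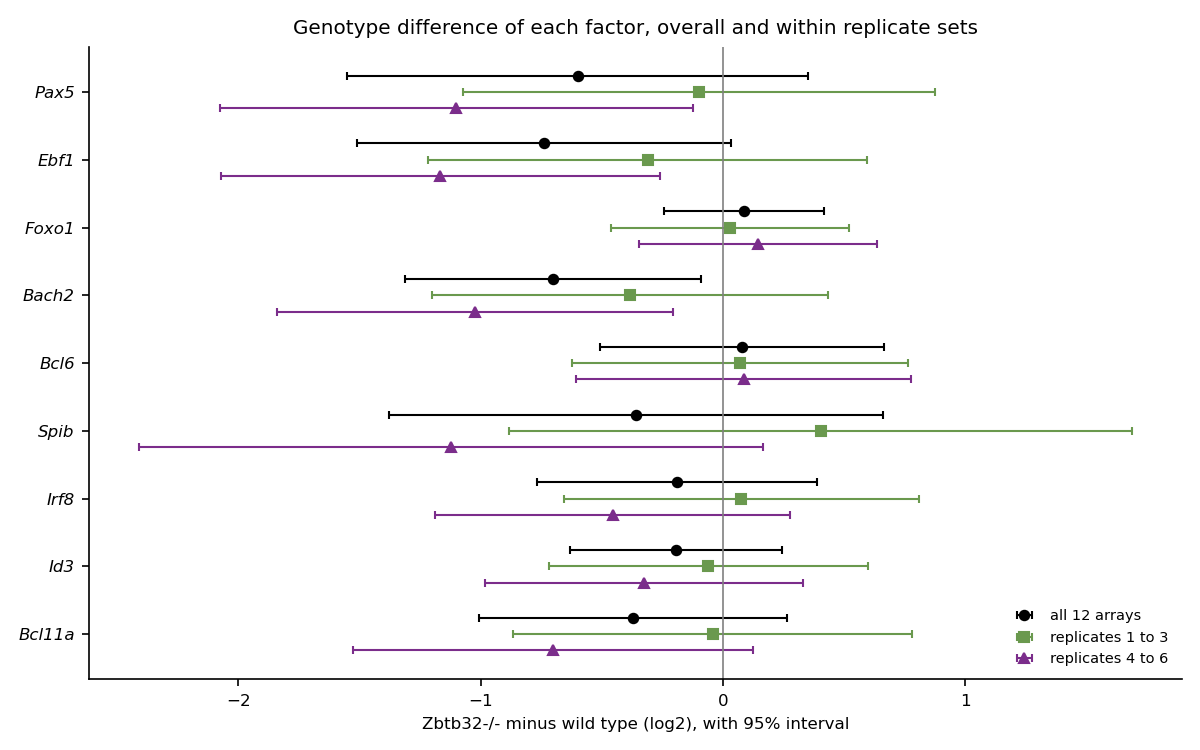
Zbtb32-/- minus wild-type difference of each factor on the log2 scale (horizontal axis) with its 95% interval, over all 12 arrays (black circles), within replicates 1 to 3 (green squares) and within replicates 4 to 6 (purple triangles). Within replicates 4 to 6 the intervals of Bach2, Pax5 and Ebf1 lie below 0, while every interval of replicates 1 to 3 spans 0.

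The negative differences were larger in value within replicates 4 to 6 than within replicates 1 to 3. Within replicates 1 to 3, 5 of the 9 factors had a negative difference, with a median of -0.04, where 49.1% of all genes were negative. Within replicates 4 to 6, 7 of 9 did, with a median of -0.70, where 45.9% of all genes were negative. There, Ebf1 differed by -1.17 (SE 0.42, interval -2.07 to -0.26), Pax5 by -1.10 (SE 0.45, -2.07 to -0.13) and Bach2 by -1.02 (SE 0.38, -1.84 to -0.21). These 3 factors had an unadjusted p under 0.05 on the lower side in that set, as 3.19% of all genes did, and adjusted p-values of 0.426 to 0.496. Only 0.0133% of all genes, or 2, passed the adjusted threshold there, and 0 of the 9 factors did. The values of replicates 1 to 3 moved with single arrays. Without wild-type replicates 2 and 6, that of Pax5 there moved from -0.10 to -0.59, that of Ebf1 from -0.31 to -0.73 and that of Bach2 from -0.38 to -0.63. Without wild-type replicate 3 they moved the other way, to 0.45 for Pax5, 0.095 for Ebf1 and 0.038 for Bach2.

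Group by group, wild-type replicates 4 to 6 had the highest mean for 7 of the 9 factors and Zbtb32-/- replicates 4 to 6 for the other 2, Bcl6 and Foxo1. For Ebf1 the 3 wild-type arrays of replicates 4 to 6 (10.15 ± 0.14, SD, n = 3) lay above every array of the next group, wild-type replicates 1 to 3 (8.99 ± 0.82). For Pax5 that top group (10.48 ± 0.26) lay above Zbtb32-/- replicates 4 to 6 (9.39 ± 0.49) without overlap, and for Spib (9.72 ± 0.25) above Zbtb32-/- replicates 1 to 3 (8.73 ± 0.59). The top group of Spib did overlap with wild-type replicates 1 to 3, whose Spib values ran from 6.76 to 9.91. The 3 lower groups overlapped with their neighbours in order for all 3 genes. For Bach2, Irf8, Foxo1, Id3 and Bcl11a every group overlapped with the next.

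For 5 of the 9 factors, Pax5, Bcl6, Spib, Irf8 and Bcl11a, the difference between the sets was larger in value than that between the genotypes. Replicates 4 to 6 minus 1 to 3, with genotype in the fit, gave 1.11 for Pax5 (SE 0.33, interval 0.39 to 1.83; limma adjusted p = 0.0638), a 2.16-fold higher value. It gave 0.73 for Ebf1 (SE 0.31, interval 0.07 to 1.39; adjusted p = 0.155) and 0.64 for Bcl6 (SE 0.22, interval 0.17 to 1.11; adjusted p = 0.0884). With a covariate for 58 markers of other cells, described with those markers, the Pax5 value was 0.37 (limma adjusted p = 0.56). The set difference of Spib, 0.64, was 0.18 without wild-type replicates 2 and 6. Among the 9, only Bcl6 had sets that did not overlap, from 5.70 to 6.19 in replicates 1 to 3 and from 6.22 to 7.61 in replicates 4 to 6, as 3.90% of all genes did. In all, 8 of the 9 factors had a positive set difference, against 38.8% of all genes, and 3 had an unadjusted p under 0.05 on the higher side, against 8.04%. Of all genes, 6.52% passed the adjusted threshold and 0 of the 9 factors did. The sets were noticed in these data, so their differences are a description.

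Whether the genotype difference itself differed between the sets was tested with an interaction term. It was negative for 7 of 9 factors, against 47.5% of all genes, and its most negative values were -1.53 for Spib (SE 0.84), -1.001 for Pax5 (SE 0.63) and -0.85 for Ebf1 (SE 0.59). The unadjusted p-values of these 3 were 0.0926, 0.140 and 0.171. Without wild-type replicates 2 and 6 the values were -0.78 for Spib, -0.66 for Pax5 and -0.49 for Ebf1. Of all genes, 3.86% had an unadjusted p under 0.05 and 0% passed the adjusted threshold in limma. For 0 of the 9 factors was the difference between the sets shown. The positive Spib difference of replicates 1 to 3, 0.40, rested on wild-type replicate 2 and was -0.38 without it.

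Most of the factors varied across the arrays with the markers of B cell precursors. The 11 markers, all above the filter on low values, include Vpreb1 and Igll1 of the surrogate light chain, the recombinase genes Rag1 and Rag2, Dntt and Il7r, the receptor for interleukin 7. Their mean per array ran from 7.33 to 8.54 in wild-type and from 7.24 to 7.97 in Zbtb32-/- cells. It was 7.43, 7.33, 8.19, 8.54, 8.19 and 7.995 in wild-type replicates 1 to 6 and 7.25, 7.96, 7.29, 7.97, 7.24 and 7.69 in Zbtb32-/- replicates 1 to 6. Wild-type replicates 3 to 6 thus held the 4 highest values here as well.

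**Figure D3:**
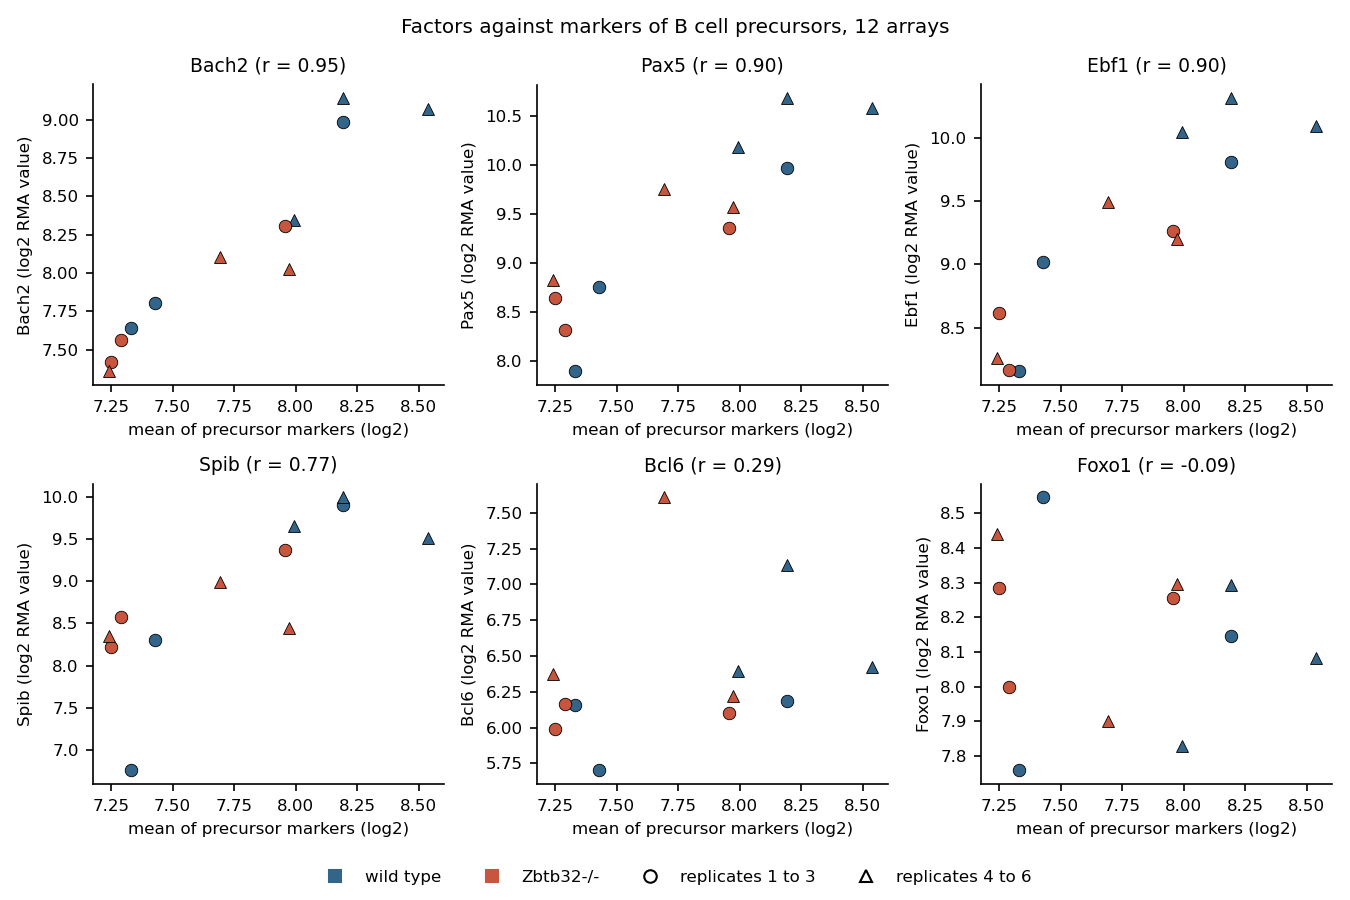
Log2 RMA value of 6 factors (vertical axes) against the mean of the 11 precursor markers (horizontal axis, log2) on the 12 arrays, blue for wild type, red for Zbtb32-/-, circles for replicates 1 to 3 and triangles for replicates 4 to 6. Bach2, Pax5 and Ebf1 line up with the markers (r = 0.95, 0.90 and 0.90), Spib follows with r = 0.77, and Bcl6 and Foxo1 scatter (r = 0.29 and -0.09).

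Over the 12 arrays, Bach2 followed that mean with r = 0.95 (rho = 0.97, permutation p = 4e-05 and 0.0001, adjusted 0.00024 and 0.0009 over 18 relations). Leaving out the 2 arrays farthest from the median of the markers, wild-type replicate 4 and Zbtb32-/- replicate 5, left r at 0.92, and within the sets it was 0.98 and 0.92. Bcl11a gave r = 0.95, Pax5 and Ebf1 0.90, Irf8 0.85 and Spib 0.77, with adjusted permutation p-values of 0.00024 to 0.0037. Id3 (r = 0.55, adjusted permutation p = 0.0915), Bcl6 (0.29, 0.425) and Foxo1 (-0.09, 0.813) did not pass. The markers were not spread evenly, since 5 arrays lay close together at 7.24 to 7.43 and the other 7 ran from 7.69 to 8.54. Over those 7 arrays r was 0.96 for Bcl11a, 0.83 for Bach2, 0.71 for Irf8, 0.69 for Pax5, 0.61 for Ebf1 and 0.48 for Spib, given with no p. The values on both axes come from the same arrays and share their normalization. The permutations shuffled all 12 arrays across genotypes and sets, and the lists were chosen with earlier results of these data known. The permutation p-values here and for the B cell surface and signalling genes below are therefore a description and no independent evidence.

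Of the 11 precursor markers, 10 had a negative genotype difference, against 47.1% of all genes, with a median of -0.32. On the lower side 2 had an unadjusted p under 0.05, against 1.45% of all genes. These were Rag1 at -0.95 (SE 0.32) and Il7r at -1.04 (SE 0.43), while Vpreb1 differed by -0.76 (SE 0.41). Dntt, the polymerase of early precursors, was the 1 marker with a positive value, 0.26. With the mean of these markers as a covariate, an alternative chosen after seeing the data, the difference of Bach2 was -0.23 (SE 0.15) in place of -0.70. That of Ebf1 was -0.18 (SE 0.22), and those of Pax5, Bcl11a, Irf8 and Spib turned positive, at 0.11 (SE 0.25), 0.12 (SE 0.15), 0.22 (SE 0.18) and 0.30 (SE 0.36). That of Bcl6 moved the other way, from 0.08 to 0.26 (SE 0.29), and those of Foxo1 and Id3 were 0.08 and -0.01. The mean of the markers itself differed by -0.38 between the genotypes and followed most of the factors closely across the arrays. Shifts of those factors under this covariate were therefore partly fixed in advance and name no cause. Whether precursor cells in the sort or precursor transcripts in the plasma cells account for the markers was not tested.

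Of the 9 factors, 5 also ran with B cell surface and signalling genes, and Spib had the highest r. The mean of 22 such genes lay between 8.17 and 8.98 in wild-type and between 8.41 and 8.71 in Zbtb32-/- cells. Spib followed it with r = 0.94 (rho = 0.96, adjusted permutation p = 0.00024), and r was 0.97 without the 2 farthest arrays, wild-type replicates 5 and 6. Pax5 and Ebf1 each gave r = 0.84, Bach2 0.79 and Bcl11a 0.72, with adjusted permutation p-values of 0.0015 to 0.0139. Id3 (r = 0.56, adjusted permutation p = 0.0844), Irf8 (0.51, 0.115), Bcl6 (0.30, 0.41) and Foxo1 (0.05, 0.891) did not pass by r, while the rank correlations of Id3 and Irf8 did (rho = 0.64 and 0.67, adjusted permutation p = 0.0364 and 0.0288). Of the 22 genes, 16 had a negative genotype difference, against 47.1% of all genes, with a median of -0.10. An unadjusted p under 0.05 on the lower side was found for 2 of them, against 1.45% of all genes. These were Ccr7, a homing receptor for lymphoid tissue, at -0.44 (SE 0.18) and Blk, a B cell kinase, at -0.42 (SE 0.19). Vpreb3 differed by -0.46 (SE 0.23), Cd79a by -0.11 and Ms4a1 by -0.16.

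**Figure D4:**
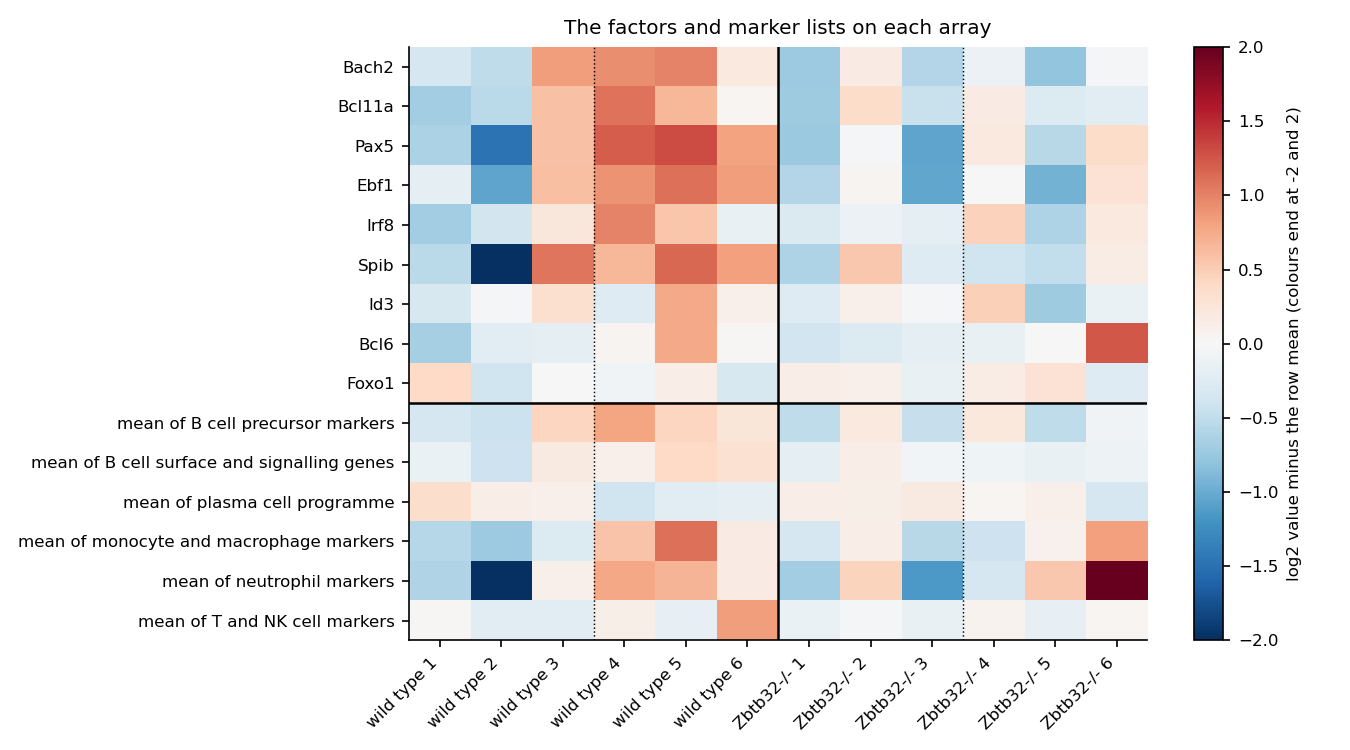
Log2 value minus the row mean (colour, ends at -2 and 2) for the 9 factors and the means of 6 marker lists on each of the 12 arrays, wild type to the left and Zbtb32-/- to the right of the solid line, with dotted lines between replicates 1 to 3 and 4 to 6. The upper 6 factors share a pattern with the precursor markers, Bcl6 is highest on Zbtb32-/- replicate 6, where neutrophil markers are highest too, and Foxo1 changes little.

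Among themselves, Pax5 and Ebf1 were the closest pair, with r = 0.96 (rho = 0.97) over the 12 arrays and 0.97 and 0.98 within the sets. Ebf1 was also the gene most like Pax5, and Pax5 the gene most like Ebf1, of all 14993 genes tested. Bach2 gave r = 0.91 with Ebf1, 0.91 with Bcl11a and 0.88 with Pax5. Foxo1 stood apart, with r between -0.33 and 0.09 to each of the 8 others. These correlations describe 12 arrays that differ in many genes at once, and no p is given for them.

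By the highest r over the 12 arrays, the genes most like Bach2 were Spns3 (0.98) and Lrmp (0.96), and those most like Bcl11a were Spns3 (0.94; 0.97 and 0.89 within the sets) and Myb (0.92), a factor of early haematopoiesis. Lgals9, a galectin, came next for both Pax5 (0.95) and Ebf1 (0.94). Kdm1b (0.94) and Snx2 (0.93) were most like Spib, and Mmp14 (0.91) and Steap4 (0.89) most like Irf8. For Id3 these were Tespa1 (0.85) and the recombinase gene Rag2 (0.80), for Foxo1 Scaf8 (0.91) and Elp4 (0.90), and for Bcl6 Gja1 (0.95) and Actn1 (0.95). The Bcl6 values fell to 0.58 for both genes within replicates 1 to 3.

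Markers of other cells moved with some factors. The 19 neutrophil markers, among them S100a9 and Ngp, had a mean per array of 7.69 to 10.46 in wild-type and 8.54 to 11.79 in Zbtb32-/- cells, although the sort excluded Ly6g and CD11b. The highest mean was in Zbtb32-/- replicate 6, the array with the highest Bcl6. Bcl6 gave r = 0.74 with these markers and 0.83 with 13 monocyte and macrophage markers, whose mean ran from 6.61 to 8.43 and from 6.78 to 8.16. Within replicates 1 to 3 these correlations were -0.07 and 0.17, and within replicates 4 to 6 they were 0.87 and 0.79. Of these lists, 17 of 19 and 3 of 13 genes had a positive genotype difference, as did 7926 of the 14993 genes tested. The medians were 0.20 and -0.13, and 0 genes of either list had an unadjusted p under 0.05 in limma. The part of such cells in the Bcl6 values was not tested.

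Pax5 also gave r = 0.72 with the neutrophil and 0.78 with the monocyte list. Its values were 0.91 and 0.73 in replicates 1 to 3 and 0.07 and 0.60 in replicates 4 to 6. Ebf1 gave 0.62 and 0.70 with the same lists over the 12 arrays, and Spib 0.67 and 0.67. With the monocyte list Bach2 gave 0.61, Bcl11a 0.60 and Irf8 0.58, while Id3 gave 0.22 and Foxo1 -0.04. With a covariate for 58 markers of neutrophils, monocytes, erythroid cells and T and NK cells, the genotype difference of Pax5 was -0.74, that of Ebf1 -0.85 and that of Bach2 -0.78. The set difference of Bach2 turned from 0.39 to -0.12 and that of Spib from 0.64 to -0.41 under the same covariate. The set differences of Pax5, Ebf1, Bcl6 and Bcl11a were 0.37, 0.063, 0.32 and 0.12 in place of 1.11, 0.73, 0.64 and 0.48, and the Bcl6 genotype difference was 0.0048 in place of 0.08. Plasmacytoid dendritic cells also express Spib, Irf8 and Bcl11a. The mean of 6 of their markers ran from 7.83 to 8.20 and from 8.01 to 8.15, but single markers moved in different directions. Between the sets 4 of the 6 had a positive difference, with Ccr9 at 0.64 and Siglech at 0.37, while Bst2 was at -0.50. Between the genotypes Siglech, which defines that class, differed by 0.13 (SE 0.19). Bcl11a gave r = 0.19 with the mean of the 6 markers, Irf8 0.24 and Spib 0.31. Within replicates 1 to 3 these were -0.26, -0.31 and 0.27, and within replicates 4 to 6 they were 0.55, 0.40 and -0.08. T and NK cell markers lay between 6.20 and 7.26 and between 6.25 and 6.50, with Cd3e differing by -0.11.

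Close relatives of the factors did not show a common direction. Of 14, 9 had a negative difference, against 47.1% of all genes, with a median of -0.02. Bach1, the paralogue of Bach2, was the 1 with an unadjusted p under 0.05, against 4.28% of all genes. Bach1 differed by -0.36 (SE 0.15), with -0.34 and -0.37 within the sets. Id2, the relative of Id3, differed by -0.45 (SE 0.26) and Spic, an ETS factor close to Spi-B, by -0.50 (SE 0.40). Spi1, the gene of PU.1, differed by 0.21 (SE 0.25), Foxo3 by -0.01 (SE 0.12) and Irf4, which drives plasma cells, by 0.02 (SE 0.18).

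Other B lineage factors, 22 with a measured level, had 13 positive and 9 negative differences and a median of 0.05. Aff3 differed by -0.38 (SE 0.15, unadjusted p = 0.0236 in limma), Runx3 by 0.23 (SE 0.11) and Ets1 by -0.27 (SE 0.14). Mef2c and Elf1, the highest of the list by array value, differed by 0.10 and 0.07. The median thus lay near that of all genes, but single genes of the list moved with the factors. Foxp1, named after its values were seen, differed by -0.51 (SE 0.27). Over the 12 arrays it gave r = 0.93 with Ebf1 and 0.92 with Pax5. An unadjusted p under 0.05 was found for 2 of the 22, against 4.28% of all genes, and 0 passed after adjustment in limma.

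The mean of the plasma cell programme correlated negatively with most of the factors across the arrays, and with r = 0.43 with Foxo1. Its 16 genes had 11 positive differences and a median of 0.12, and 0 had an unadjusted p under 0.05 in limma. Prdm1, the gene of Blimp-1, differed by 0.28 (SE 0.27) and Xbp1 by 0.16 (SE 0.11), while Jchain differed by -0.11 (SE 0.05). The mean of the list ran from 10.48 to 11.23 in wild-type and from 10.54 to 11.06 in Zbtb32-/- cells. Bcl6 gave r = -0.78 with it, Pax5 -0.77, Irf8 -0.76, Ebf1 -0.69, Bcl11a -0.62, Bach2 -0.61, Spib -0.52 and Id3 -0.21. Within replicates 1 to 3 this was -0.88 for Bcl6, -0.23 for Pax5 and -0.09 for Ebf1. Within replicates 4 to 6 it was -0.53 for Bcl6, -0.78 for Pax5 and -0.77 for Ebf1. Between the sets, the adjusted limma threshold was passed on the lower side by 4 of the 16 genes, against 670 of all 14993 genes. Among these 4, as replicates 4 to 6 minus 1 to 3, Prdm1 differed by -0.75 (limma adjusted p = 0.032) and Xbp1 by -0.31 (adjusted p = 0.0224). The sets were noticed in these data, so this is a description.

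Known targets of the factors were also counted. Of 14 genes that Foxo factors activate, 11 had a negative difference, with a median of -0.21, and 4 had an unadjusted p under 0.05, all lower: Sesn3, a sestrin, at -0.84 (SE 0.21), Rag1, Ccr7 and Il7r. Of all genes, 47.1% had a negative difference and 1.45% had an unadjusted p under 0.05 on the lower side. The Foxo list shares Rag1, Rag2 and Il7r with the precursor markers, and Foxo1 itself differed by 0.09. Of 11 genes that Bcl6 represses, 7 had a positive difference, with a median of 0.15. S1pr1, a receptor that guides exit from tissues, was the 1 with an unadjusted p under 0.05, at -0.49 (SE 0.15, limma unadjusted p = 0.0047). Of 8 genes that Pax5 represses, 6 had a negative difference, with a median of -0.05, and Bach2's targets Prdm1, Hmox1 and Cdkn2a differed by 0.28, -0.26 and 0.03. Class II genes, which the transactivator Ciita controls, had a median of -0.03 over 8 genes, with Ciita at -0.19. No gene of these lists passed the adjusted threshold between the genotypes.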

How the data were processed

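RNA of the 12 sorted samples was prepared with a column kit, amplified from small amounts and labelled with biotin, per the labels' protocols. The table deposited by the authors holds a log2 value for each probe set and array. The submitters' processing notes name RMA and Affymetrix Expression Console, with a version and a genome build not given in the sources used here. The method makes the arrays' distributions alike and compresses low values, and array values carry no read depth, so the number of arrays limits the precision.

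Gene names came from the platform annotation. Of the probe sets that name 1 gene only, the one with the highest mean stood for the gene, and genes at or below the 25th percentile (5.49) were left out. The tests used limma 3.58.1 and R 4.3.3 (lmFit and eBayes with a trend), with p-values adjusted over all 14993 genes by the Benjamini-Hochberg method, a threshold of 0.05 and 95% intervals. The fits had genotype alone, genotype and replicate set, or both with their interaction. The script was tested on simulated data. Correlations with 2 marker lists used two-sided permutation tests in scipy 1.17.1, and tables and plots used Python 3.11.15, pandas 2.3.3 and matplotlib 3.10.9. Nothing says whether the samples came from separate mice beyond the words biological replicates. The limma p-values weigh each difference against the spread between these samples, which may not be that between mice.

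The members, gene lists and replicate sets were chosen with earlier results of these data known. Named genes were the 9 factors, the 3 genes of a list with the smallest p, its 2 highest genes, a few set by name, and the 2 genes most like each factor. Not every gene of that rule is printed. The alternatives were other normalization, filters, probe set rules, variance settings, weights per array, a block for the replicate number, marker covariates, each replicate set alone and leaving out each array. Probe sets that name several genes were not used.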

Additional observations from a re-analysis of the deposited data

Results flagged for a closer look

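The Bcl6 value of Zbtb32-/- replicate 6 stood apart from its group at 7.61 on the log2 scale, where the nearest of the other 5 Zbtb32-/- arrays was at 6.37. The gap was 0.762 of the group's range, above Dixon's 95% critical value for 6 arrays. It was the 1 such array among 18 groups of 6 tested, 9 factors in 2 genotypes, and chance gives about 1 in 20. Neutrophil markers were highest on the same array, with a mean of 11.79, and the part of such cells in the Bcl6 value was not tested.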

How the results depend on the processing

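Of 241 values of the 9 genotype differences under the alternatives, 231 kept their direction and side of the threshold and 10 reversed, in 6 factors, with adjusted p-values of 0.539 to 1.000. The differences of Bach2, Ebf1 and Id3 were negative under every alternative run. The reversals of the others were those with the precursor covariate, for Pax5 (0.11), Bcl11a (0.12), Irf8 (0.22) and Spib (0.30), those of replicates 1 to 3 alone, for Irf8 (0.076) and Spib (0.40), and, for Foxo1, -0.071 without wild-type replicates 2 and 6 together. Bcl6 became -0.049 with array weights and lay between -0.16 and 0.24 with single arrays left out. The cause of these reversals was not tested.

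Within replicates 1 to 3, array weights gave 0.23 for Bcl11a, -0.27 for Foxo1 and 0.14 for Id3, and the covariate for other cells gave -0.069 for Bcl6. Without wild-type replicates 2 and 6, Foxo1 gave -0.17 and Spib -0.38 there. Single arrays left out moved these differences from -0.65 to 0.038 for Bach2, -0.36 to 0.36 for Bcl11a, -0.086 to 0.16 for Bcl6, -0.73 to 0.095 for Ebf1, -0.17 to 0.23 for Foxo1, -0.22 to 0.10 for Id3, -0.13 to 0.33 for Irf8, -0.59 to 0.45 for Pax5 and -0.38 to 1.19 for Spib. Within replicates 4 to 6, only Bcl6 reversed, to -0.087 with array weights, to -0.043 without wild-type replicates 2 and 6, and over -0.35 to 0.34 with single arrays left out.

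The set differences reversed under the covariate for other cells for Bach2 (-0.12) and Spib (-0.41) and, for Foxo1, under renewed quantile normalization (0.037), and single arrays left out moved them from -0.11 to 0.069 for Foxo1 and -0.062 to 0.22 for Id3. Bcl6 passed the threshold between the sets with array weights (0.68) and on omitting Zbtb32-/- replicate 4 (0.75), and Pax5 on omitting Zbtb32-/- replicate 5 (1.29). The interaction of Bcl6 became -0.39 with array weights and -0.18 without wild-type replicates 2 and 6. With single arrays left out it ran from -0.42 to 0.27, that of Foxo1 from -0.083 to 0.31 and that of Id3 from -0.57 to 0.028.

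Over all genes, 1 was called between the genotypes in replicates 4 to 6 alone, and the 642 genes at an unadjusted p under 0.05 became 341 in replicates 1 to 3 and 1057 in replicates 4 to 6. Leaving out single arrays gave 458 to 1416, with 1416 when wild-type replicate 3 was left out, 1005 for wild-type replicate 1 and 968 for Zbtb32-/- replicate 6. The 977 genes called between the sets became 1579 with no filter on low values, where more genes were tested, 24 with the covariate for other cells and 240 to 1193 with single arrays left out. The interaction was called for 1 gene with array weights and for 0 to 1 with single arrays left out.

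The labels give both genotypes the numbers 1 to 6, but the deviations of same-numbered samples correlated by 0.47, 0.019, 0.22, 0.034, 0.13 and 0.16 for numbers 1 to 6, and by -0.22 to 0.17 within the sets. Since 2 pairs lay below 0.1, the numbers were not taken to pair the samples. Number 1 was the 1 number whose samples each correlated best with the other. With the replicate block, 0 genes were called and 914 had an unadjusted p under 0.05, and the adjusted p of Bach2 was 0.792. Bcl6 and Id3 have no value under the stricter filter, which they did not pass. These genes had the lowest means of the factors, 6.37 for Bcl6 and 6.35 for Id3 on the log2 scale. Their values spanned 1.91 and 1.47 log2 units over the arrays. Whether RMA compressed the differences of Bcl6 and Id3 was not tested.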
